A study of Homo sapiens with 6 samples.

Results

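Expression of 10 protein kinases that drive mitosis or guard entry into it was examined in DMS53 cells with and without overexpression of ONECUT2 (OC2). The kinases are the Aurora kinases AURKA and AURKB, the polo-like kinases PLK1 and PLK4, the cyclin-dependent kinases CDK1 and CDK2, and the checkpoint kinases WEE1, CHEK1, CHEK2 and ATR. They were chosen by name, with earlier results of these data known. They are 10 of the 62696 genes counted, and each symbol matched 1 gene. DMS53 is an established line of small cell lung cancer (SCLC), a neuroendocrine tumour, and OC2 is a homeodomain transcription factor. Control cells were transduced with lentivirus that held pLenti-C-mGFP-P2A-Puro without an insert (empty vector), and OC2-OE cells with the same vector holding the mGFP-tagged OC2 open reading frame. Both were selected with puromycin, so they differ in the inserted sequence and share the transduction and the selection. The cells of each kind were not said to be a single clone. RNA was sequenced from 3 control and 3 OC2-OE libraries, described as independent experiments, and the comparison asks what a high level of OC2 does to the transcriptome.

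Cells enter mitosis when CDK1, bound to cyclin B, becomes active, and WEE1 holds CDK1 inactive until the genome has been copied. Aurora A and PLK1 promote that switch and build the spindle, Aurora B corrects faulty attachments of chromosomes to it, and PLK4 starts the copying of centrioles. ATR and ATM sense damaged or stalled DNA and activate CHK1 and CHK2, the products of CHEK1 and CHEK2, which delay division. Transcripts of many mitotic kinases peak late in the cell cycle. SCLC cells divide fast and rely heavily on these checkpoints, and inhibitors of Aurora, PLK1, WEE1, CHK1 and ATR have been tried against this tumour. In bulk RNA, fewer cells in a given stage of the cycle and less transcript per cell cannot be told apart.

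The libraries held between 16533284 and 19099337 counted read pairs. ONECUT2 had 394 to 465 counts in controls and 68853 to 74031 in OC2-OE cells, so the labels fit the targeted gene. Libraries of a group had squared differences in counts of 1.32 to 2.07 times those expected from sampling, a narrow spread, and none were identical. All 8 neuroendocrine and epithelial markers of the line were measured, 6 lower and 2 higher in OC2-OE cells. Of other cell types, the summed fibroblast markers ranged from 22.2 to 25.3 CPM in control and from 27.8 to 31.2 CPM in OC2-OE libraries, with 1 of 3 tested higher and 1 lower. Leukocyte markers ranged from 3.69 to 4.24 and from 7.16 to 9.0 CPM, with both tested ones higher, and endothelial markers from 12.7 to 15 and from 4.17 to 4.73 CPM, with 2 of 3 tested lower. CPM is the count of a gene scaled to a common library size, with TMM normalization. Over the 3 libraries of a group, COL1A1 had 1117 counts in control and 1524 in OC2-OE cells, PDGFRA 83 and 17, LYZ 21 and 122 and KDR 548 and 85, while the fibroblast genes COL3A1, DCN and LUM had under 10 counts each in all 6 libraries and the T cell gene CD3E had 0. The part of these markers in the results below was not tested.

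Of the 10 kinases, 9 had lower expression in OC2-OE cells and ATR had higher expression, each at an adjusted p under 0.001 by edgeR's quasi-likelihood test over 17307 genes. Among all tested genes 56.5% passed this threshold, 28.7% lower and 27.8% higher, so a call alone is common in these libraries and the direction and the size say more. PLK1, AURKB, AURKA, CDK1, PLK4, CHEK2 and CHEK1 were at least 2-fold lower, that is 7 of 10 kinases, where 9.04% of all tested genes were both called and at least 2-fold lower. At the median, the log2 fold change of the kinases was -1.32 and that of all tested genes 0.01. In none of the 10 did the CPM values of the groups overlap, which holds for 73.2% of all tested genes, and 9 of 10 lay wholly below the controls, as 36.7% of all tested genes did. The summed CPM of the 10 kinases was 767, 770.2 and 772 in controls and 320.2, 327 and 329 in OC2-OE cells.

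**Figure D1:**
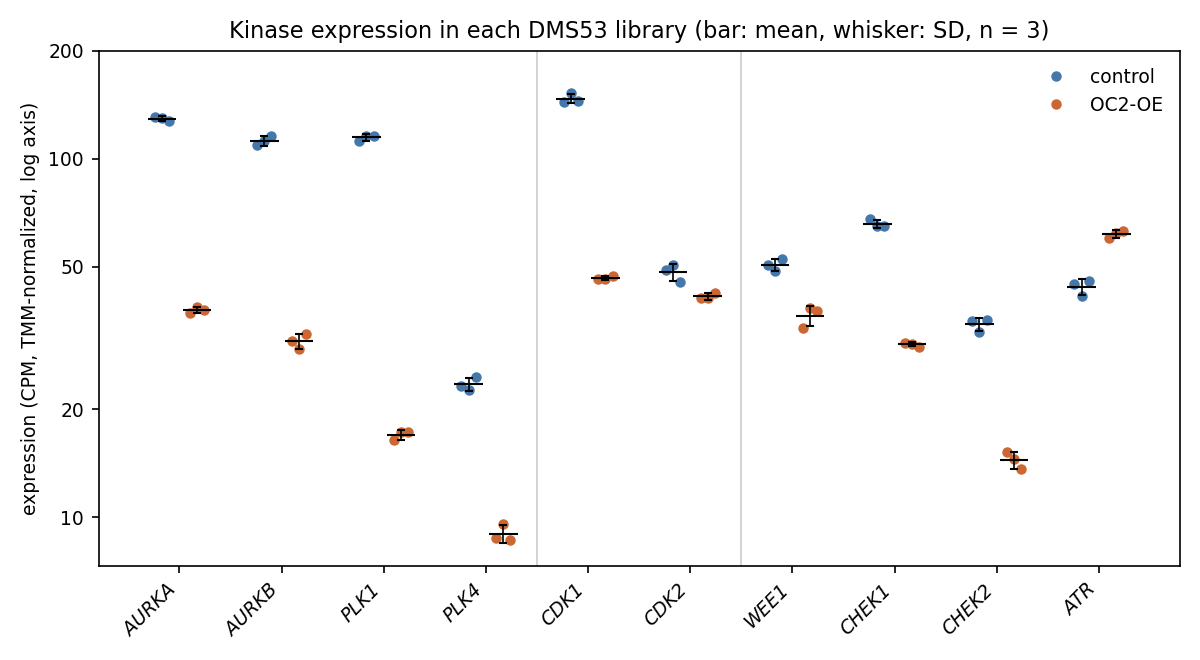
Expression of the 10 kinases in each library, in TMM-normalized CPM on a log axis, with points for the 3 control (blue) and 3 OC2-OE (orange) libraries, a bar at the mean and a whisker of 1 SD. The 4 mitotic kinases and CDK1 show the wide gaps, CDK2 and WEE1 narrow ones, and ATR alone has the OC2-OE points on top.

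Promoter sequence was read for the kinases with an entry in the RefSeq table on GRCh38.p14, which are AURKB, PLK1, PLK4, CDK1, CHEK1, CHEK2 and ATR, with 13 annotated starts. Some of these lie downstream of the gene start in the coordinates given below, which are those of GENCODE release 42. The distance was 1233 bases for PLK1, 1061 to 1193 for CHEK1, 602 for CHEK2 and 351 to 375 for AURKB. AURKA, CDK2 and WEE1 had no entry. Late cell cycle genes are known to carry a cell cycle homology region (CHR), read by the MuvB complexes with B-MYB and FOXM1, often near a CCAAT box bound by NF-Y. The stretches shown hold 1 match each of the CHR letters in the kinases that have them, all of which fell, then 120 bases before a start of CHEK1, which fell without them, and of ATR, which rose. All the kinases read here but ATR fell, and AURKB and CHEK2 fell without these letters too. Capitals mark TTTGAA or its reverse complement TTCAAA, and ATTGG, the reverse complement of CCAAT. The PLK1 stretch is chr16:23678847-23678876 on the plus strand, 42 to 13 bases before the start, and that of PLK4 is chr4:127880913-127880942 on the plus strand, 21 to 50 bases into the transcript. CDK1 is shown at chr10:60778393-60778422 on the plus strand, 85 to 56 bases before the second of its starts. CHEK1 is shown at chr11:125626104-125626223 on the plus strand and ATR at chr3:142578734-142578853 on the minus strand.
PLK1: tcccagcgccgcgTTTGAAttcggggagga
PLK4: ggcaagcggcgggagattTTCAAAatggga
CDK1: ggctctgATTGGctgcTTTGAAagtctacg
CHEK1: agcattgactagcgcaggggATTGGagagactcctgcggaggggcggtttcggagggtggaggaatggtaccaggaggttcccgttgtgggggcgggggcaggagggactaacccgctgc
ATR: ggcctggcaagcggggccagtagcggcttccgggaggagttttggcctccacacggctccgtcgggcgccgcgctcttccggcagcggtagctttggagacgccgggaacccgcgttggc

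The CHR letters, searched as TTTGAA or TTCGAA on both strands from 250 bases before to 50 after each start, were found at 4 of the 13 starts, in the 3 kinases PLK1, PLK4 and CDK1. They occur in 16.4% of the 35116 promoters of the table and in 12.2% of those of tested genes. CCAAT was found at 10 of the 13 starts, in every one of the 7 kinases but ATR, and in 34.6% of all promoters and of those of tested genes. Of the E2F words TTTCCCGC, TTTGGCGC, TTTCGCGC and TTTGCCGC, only TTTCGCGC was found, at 2 of the 13 starts, both of CDK1, and 3.31% of all promoters and 4.55% of those of tested genes hold at least 1 of the 4. ATCGAT and ATTGAT, letters that ONECUT factors are known to bind, were at 0 of the 13 starts, in 6.96% of all promoters and in 4.56% of those of tested genes. No 2 matches at a start overlapped, but starts of a gene lie close together, so that the CCAAT matches at both AURKB starts are the same site, 1 CCAAT site is counted at all 3 CHEK1 starts and the TTTCGCGC of both CDK1 starts is 1 site. With only the 250 bases before each start, PLK4 lost its CHR letters and the number of kinases with each of the other words was the same. A match is a description of the sequence and not a bound site, and its absence from this window says nothing about binding elsewhere.

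AURKA (ENSG00000087586.18, chromosome 20 from 56369389 to 56392337, minus strand, coordinates on GRCh38) encodes the kinase that matures centrosomes and, with TPX2, assembles the spindle. Its counts were 2456, 2178 and 2068 in controls and 713, 667 and 689 in OC2-OE cells. Every OC2-OE library lay far below every control library. After normalization its level was 129.6 ± 2.20 CPM in control cells and 37.8 ± 0.644 CPM in OC2-OE cells (SD, n = 3), 3.43-fold lower. The log2 fold change was -1.78 (standard error 0.041, adjusted p = 3.78e-71, edgeR quasi-likelihood test with Benjamini-Hochberg adjustment). AURKA is also among the subtype markers that the study lists as altered in these libraries, so its fall is not independent evidence.

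AURKB (ENSG00000178999.13, chromosome 17 from 8204733 to 8210600, minus strand) encodes the kinase of the chromosomal passenger complex, which acts at the centromere and the midbody. It had 2038, 1869 and 1888 counts in controls and 595, 511 and 592 in OC2-OE cells, again without overlap. Its level went from 112 ± 3.55 to 31.0 ± 1.5 CPM (SD, n = 3), 3.62-fold lower, and a log2 fold change of -1.85 was estimated (standard error 0.045, adjusted p = 3.21e-69, same test). The factors for AURKA and AURKB, 3.43 and 3.62, lie close together. The ratio of AURKA to AURKB counts was 1.21, 1.17 and 1.10 in controls and 1.20, 1.31 and 1.16 in OC2-OE cells, which overlap, and its log2 difference was 0.08 (two-sided exact permutation p = 0.5).

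PLK1 (ENSG00000166851.15, chromosome 16 from 23677656 to 23690367, plus strand) encodes the kinase that acts from mitotic entry to cytokinesis and activates CDC25C. Its fold change was the largest of the 10 kinases. Counts of 2093, 1935 and 1888 in the control libraries stood against 314, 299 and 315 in OC2-OE cells. The level was 115 ± 2.23 CPM in control cells and 17 ± 0.512 CPM in OC2-OE cells (SD, n = 3), 6.75-fold lower. Its estimate of -2.75 on the log2 scale (standard error 0.050, adjusted p = 1.33e-82, edgeR) had a 95% interval of -2.85 to -2.65, and 1.01% of all tested genes had a lower value.

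PLK4 (ENSG00000142731.11, chromosome 4 from 127880893 to 127899224, plus strand), the trigger of centriole duplication, was the least counted member, with 433, 380 and 400 counts in controls and 168, 166 and 157 in OC2-OE cells. Its groups were also clearly apart, at 23.5 ± 0.984 and 8.99 ± 0.518 CPM (SD, n = 3), 2.61-fold lower in OC2-OE cells. The log2 fold change was -1.39 (standard error 0.085, adjusted p = 5.59e-31, edgeR). PLK4 fell less than PLK1: its counts per PLK1 count were 0.207, 0.196 and 0.212 in controls and 0.535, 0.555 and 0.498 in OC2-OE cells. This log2 ratio rose by 1.37 without overlap (two-sided exact permutation p = 0.1, the smallest that 3 against 3 libraries allow, 0.109 after adjustment over 12 ratios, as for every ratio below).

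CDK1 (ENSG00000170312.17, chromosome 10 from 60778331 to 60794852, plus strand), the kinase that drives mitosis, had 2696, 2538 and 2350 counts in controls and 886, 799 and 860 in OC2-OE cells. Here too the groups were far apart. Its level was 147 ± 4.2 CPM in control cells and 46.5 ± 0.597 CPM in OC2-OE cells (SD, n = 3), 3.16-fold lower, with a log2 fold change at -1.66 (standard error 0.039, adjusted p = 8.38e-71, edgeR).

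CDK2 (ENSG00000123374.11, chromosome 12 from 55966781 to 55972789, plus strand), which with cyclins E and A drives DNA replication, hardly moved beside CDK1. Its counts were 915, 844 and 736 in controls and 781, 707 and 771 in OC2-OE cells, and before normalization these ranges overlap. After it they do not, at 49.0, 50.4 and 45.3 CPM against 40.8, 40.8 and 42.3 CPM. The log2 fold change was -0.22 (standard error 0.051, adjusted p = 5.01e-05, edgeR), 1.17-fold lower, and 32.6% of all tested genes had a lower value. This call depends on single libraries, the scaling and the test: without control replicate 2 the log2 fold change was -0.19 (adjusted p = 0.00197), without OC2-OE replicate 1 it was -0.21 (adjusted p = 0.00118), with library size only it was -0.17 (adjusted p = 0.00162, edgeR), and with the Wald test of DESeq2 it was -0.23 (adjusted p = 0.00114). The ratio of CDK1 to CDK2 counts was 2.95, 3.01 and 3.19 in controls and 1.13, 1.13 and 1.12 in OC2-OE cells, a fall of the log2 ratio by 1.44 without overlap (exact permutation p = 0.1).

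**Figure D2:**
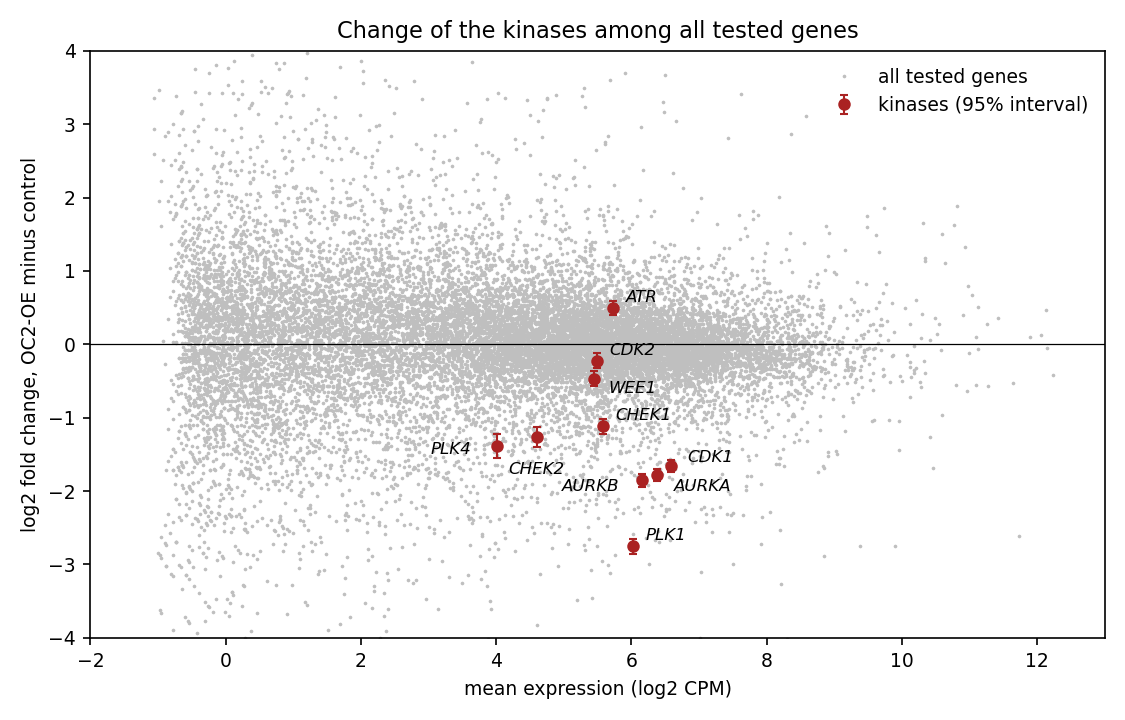
Change against level for all 17307 tested genes (grey) and the 10 kinases (red, with the 95% interval), with mean log2 CPM on the horizontal axis and the log2 fold change of OC2-OE against control on the vertical axis; 114 genes lie outside the axes. PLK1 at -2.75 lies lowest of the kinases, and CDK2 at -0.22 and ATR at 0.49 lie within the dense band of all genes.

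WEE1 (ENSG00000166483.12, chromosome 11 from 9573670 to 9593457, plus strand) encodes the nuclear kinase that adds the inhibitory phosphate to CDK1 and CDK2. It had 941, 814 and 853 counts in controls and 648, 664 and 683 in OC2-OE cells, a modest but complete separation. Its level was 50.5 ± 1.91 CPM in control cells and 36.5 ± 2.40 CPM in OC2-OE cells (SD, n = 3), 1.38-fold lower, with a log2 fold change at -0.47 (standard error 0.052, adjusted p = 3.30e-14, edgeR). WEE1 fell less than its target CDK1. WEE1 counts per CDK1 count were 0.349, 0.321 and 0.363 in controls and 0.731, 0.831 and 0.794 in OC2-OE cells, a rise of the log2 ratio by 1.19 (exact permutation p = 0.1).

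CHEK1 (ENSG00000149554.14, chromosome 11 from 125625163 to 125676255, plus strand) encodes CHK1, which restrains CDC25 phosphatases when replication stalls. Counts were 1266, 1089 and 1053 in controls and 589, 529 and 544 in OC2-OE cells. The groups did not overlap, and the level fell from 65.9 ± 1.65 to 30.4 ± 0.459 CPM (SD, n = 3), 2.17-fold. Its log2 fold change was -1.12 (standard error 0.051, adjusted p = 3.18e-42, edgeR). CHEK1 shares 53 exonic bases on the same strand with STT3A, which rose by 0.47 on the log2 scale.

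CHEK2 (ENSG00000183765.23, chromosome 22 from 28687743 to 28742422, minus strand) encodes CHK2, the kinase downstream of ATM. It had 657, 550 and 579 counts in controls and 291, 252 and 247 in OC2-OE cells, with every OC2-OE library lower. Levels were 34.5 ± 1.47 and 14.4 ± 0.820 CPM (SD, n = 3), 2.39-fold lower in OC2-OE cells, with a log2 fold change at -1.26 (standard error 0.069, adjusted p = 1.10e-34, edgeR). The factors for CHEK1 and CHEK2 were 2.17 and 2.39, and CHEK1 counts per CHEK2 count were 1.93, 1.98 and 1.82 against 2.02, 2.10 and 2.20, a log2 difference of 0.14 (exact permutation p = 0.1). Partial copies of CHEK2 lie elsewhere in the genome, and the 7 named CHEK2P1 to CHEK2P7 had 0 counts in these libraries, where reads with several matches were not counted.

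ATR (ENSG00000175054.16, chromosome 3 from 142449007 to 142578733, minus strand), the kinase that senses single-stranded DNA at stalled forks, was the 1 kinase that rose. Its counts were 837, 691 and 743 in controls and 1151, 1078 and 1144 in OC2-OE cells. The lowest OC2-OE library was well above the highest control library. Its level rose from 43.9 ± 2.32 to 61.7 ± 1.44 CPM (SD, n = 3), 1.4-fold, with a log2 fold change at 0.49 (standard error 0.048, 95% interval 0.39 to 0.58, adjusted p = 3.43e-17, edgeR), and 78.8% of all tested genes had a lower value. Against its effector CHEK1 the shift was wider, with 1.51, 1.58 and 1.42 CHEK1 counts per ATR count in controls and 0.512, 0.491 and 0.476 in OC2-OE cells (log2 difference -1.61, exact permutation p = 0.1).

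With these unequal changes the makeup of the set shifted. ATR made up 5.36% to 5.92% of the summed CPM of the 10 kinases in controls and 18.8% to 19.1% in OC2-OE cells. The share of PLK1 went the other way, from 14.6% to 15% down to 5.12% to 5.27%. CDK2 took 5.86% to 6.55% in controls and 12.5% to 12.8% in OC2-OE cells, while CHEK2, at 4.27% to 4.61% and 4.12% to 4.74%, overlapped. By a chi-square test of counts within groups, no kinase varied detectably beyond counting error (p-values between 0.0837 for WEE1 and 0.796 for AURKA).

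Levels of different genes were compared as CPM per kilobase of the longest coding transcript (GENCODE release 29). In control cells the order from high to low was AURKB (89.5), CDK1 (75.4), AURKA (57.6), PLK1 (51.5), CDK2 (21.0), CHEK2 (17.5), CHEK1 (15.9), WEE1 (14.7), PLK4 (6.12) and ATR (5.33 CPM per kilobase), and no neighbours in this order overlapped over the 3 libraries. Mitotic kinases other than PLK4 thus stood with CDK1 above all checkpoint kinases. In OC2-OE cells AURKB (24.7) and CDK1 (23.9 CPM per kilobase) led and overlapped with each other, followed by CDK2 (18), AURKA (16.8) and WEE1 (10.6 CPM per kilobase). PLK1 (7.62), ATR (7.48), CHEK2 (7.32) and CHEK1 (7.31 CPM per kilobase) followed, each overlapping with the next, and PLK4 was last at 2.34. With all exons of a gene merged as its length, AURKA ranks above CDK1 in both groups and CHEK1 above CHEK2 in control cells, and in OC2-OE cells CHEK1 moves up to rank 5 and ATR, whose merged exons span 27234 bases against 8249 for the transcript, down to rank 9.

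**Figure D3:**
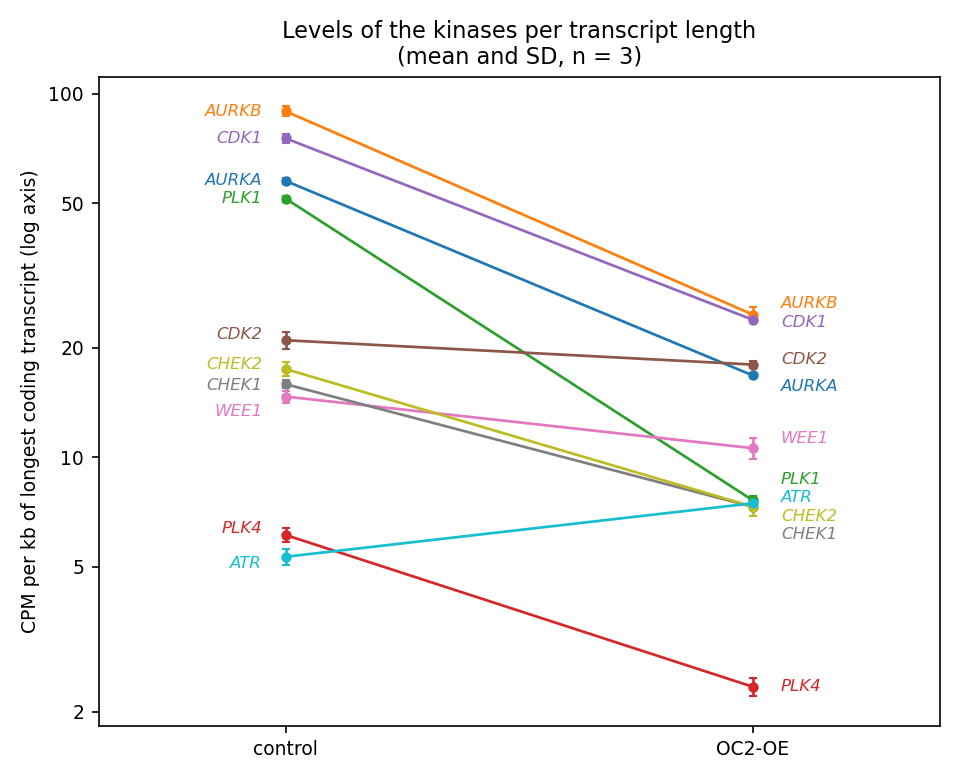
Mean level of each kinase in control and OC2-OE cells, in CPM per kilobase of the longest coding transcript on a log axis, with whiskers of 1 SD over 3 libraries. The lines converge: PLK1 crosses from 51.5 down to 7.62, and ATR rises from 5.33 to 7.48 CPM per kilobase.

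Genes that work with the 10 kinases were counted in lists by role, which were also chosen with earlier results of these data known and were not tested as sets. Of 88 such genes 86 could be tested, of which 60 were lower and 5 higher in OC2-OE cells and 21 did not pass the threshold, so 75.6% were called against 56.5% of all tested genes. Their median log2 fold change was -0.61, and 33 were called and at least 2-fold lower, as were 9.04% of all tested genes.

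Among 11 activators and partners of the Aurora kinases, 9 were lower and 1 higher (90.9% called, against 56.5% of all tested genes). Their median log2 fold change was -1.48. BIRC5 (-2.29) and CDCA8 (-2.11), subunits of the chromosomal passenger complex with AURKB, and TPX2 (-1.98), the spindle activator of AURKA, fell most. AJUBA, a LIM protein that binds AURKA, rose by 0.74, while NEDD9 was at 0.39 (adjusted p = 0.00264, edgeR) and did not pass. TPX2 counts per AURKA count were 1.72, 1.67 and 1.69 in controls and 1.46, 1.49 and 1.46 in OC2-OE cells, so TPX2 fell slightly more than the kinase. INCENP, the scaffold of the same complex as AURKB, was lower by 0.99 on the log2 scale, and its counts per AURKB count went from 1.05, 1.02 and 0.969 to 1.98, 1.87 and 1.71. Neither ratio overlapped between groups (each exact permutation p = 0.1).

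The relatives AURKC and PLK2 did not pass the threshold, at -0.31 and -0.37, PLK3, a stress-responsive polo-like kinase, rose by 0.50, and PLK5 was too low to test. Of 6 centriole partners of PLK4, 5 were lower (83.3% called, against 56.5% of all tested genes), with a median of -0.62. They were led by STIL (-1.45), CEP63 (-1.14) and SASS6 (-0.63). STIL and SASS6 are the proteins with which PLK4 builds the cartwheel of a new centriole.

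Among the cyclins and CKS proteins that bind CDK1 and CDK2, 6 of 8 tested were lower (75% called, against 56.5% of all tested genes). Their median was -1.61. CCNB2 (-2.28), CCNA2 (-2.25) and CCNB1 (-2.24) had lower values than CDK1 (-1.66). Of the cyclin E genes, CCNE2, at 38.2 CPM in control cells, was lower (-1.36). CCNE1 (-0.06) and CCNA1 (-0.12), the first of low level at 3.16 CPM and the second at 1.72 CPM in control cells, did not pass. CCNB1 counts per CDK1 count were 1.73, 1.59 and 1.65 in controls and 1.08, 1.08 and 1.15 in OC2-OE cells. CCNA2 counts per CDK2 count went from 2.29, 2.20 and 2.34 to 0.606, 0.573 and 0.502, the largest shift of the 12 ratios, with a log2 difference of -2.03 (exact permutation p = 0.1).

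Of the enzymes that set the phosphates on CDK1 and CDK2, the activating phosphatases CDC25C (-1.92), CDC25B (-1.43) and CDC25A (-1.23) were lower. The inhibitory kinase PKMYT1 (-0.94) and CCNH (-0.19) of the CDK-activating kinase were lower too. The other subunits of the CDK-activating kinase, CDK7 (-0.04) and MNAT1 (0.00), did not pass. In this list 5 of 7 were lower (71.4% called, not far from the 56.5% of all tested genes). Counts of CDC25C per WEE1 count went from 0.607, 0.651 and 0.581 to 0.264, 0.202 and 0.208, and those of PKMYT1 per WEE1 count from 0.665, 0.765 and 0.700 to 0.511, 0.494 and 0.531. WEE1 thus fell less than the phosphatase that opposes it and less than the second kinase of its kind (each exact permutation p = 0.1). Of 4 CDK inhibitors, CDKN3 (-2.02), CDKN1C (-1.58, at 1.18 CPM in control cells) and CDKN1A (-0.95) were lower and CDKN1B (-0.04) did not pass. That is 75% called, against 56.5% of all tested genes. CDKN3 is a phosphatase whose transcript is known to peak with mitotic genes. A list of 7 genes held the Greatwall kinase and its targets, which restrain the phosphatase PP2A-B55 that opposes CDK1, together with subunits of that phosphatase. Of these 7 genes, 5 were lower (71.4% called, not far from the 56.5% of all tested genes), with a median of -0.21. MASTL, the Greatwall kinase, was at -0.80, and the phosphatase subunits PPP2R2D and PPP2R1A were at -0.54 and -0.30.

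**Figure D4:**
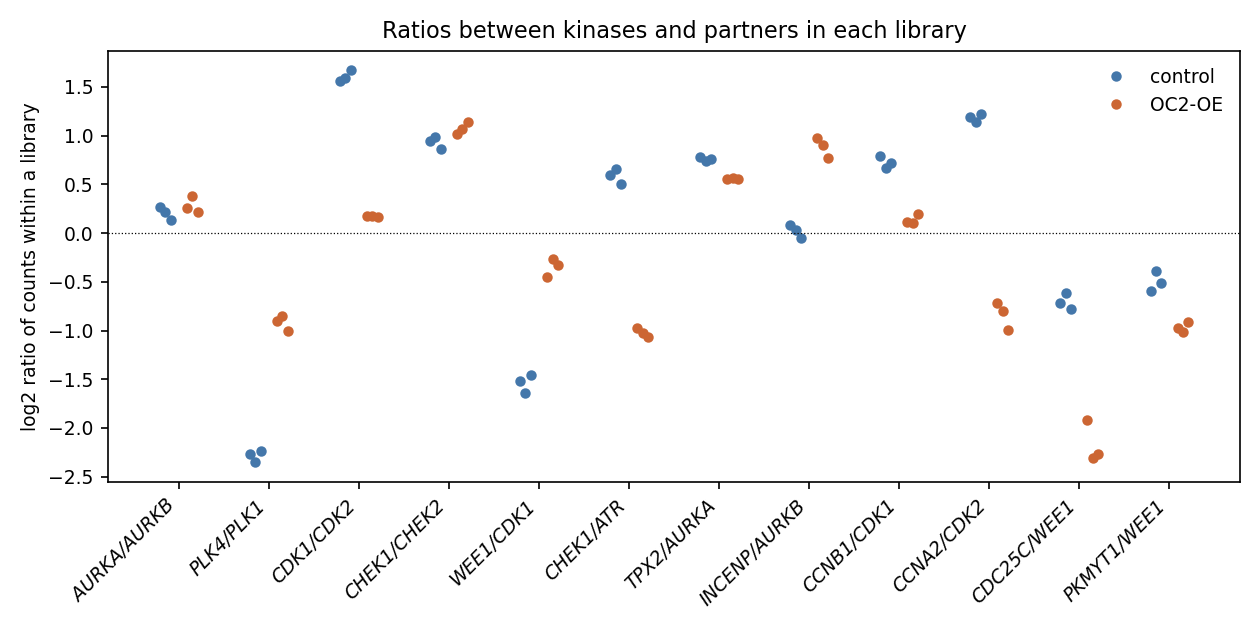
The 12 ratios of counts between kinases and partners in each library, on a log2 axis, with 3 control (blue) and 3 OC2-OE (orange) points a ratio; a ratio of counts is not scaled for transcript length, so it is read between groups only. AURKA/AURKB overlaps, and CCNA2/CDK2 shows the widest gap, with a difference of -2.03.

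Partners of ATR, CHK1 and CHK2 were counted in 2 lists. Of 13 genes that recruit or activate ATR and CHK1, 8 were lower and 1 higher (69.2% called, against 56.5% of all tested genes), with a median of -0.33. CLSPN, the adaptor through which ATR activates CHK1, was at -0.79, and the RPA subunits RPA2 and RPA3, which coat single-stranded DNA, at -0.65 and -0.61. HUS1, of the 9-1-1 clamp, rose by 0.42, and ATRIP, the obligate partner of ATR, did not pass (log2 fold change -0.05, adjusted p = 0.678, edgeR). Of 9 genes around ATM and CHK2, 4 were lower and 2 higher (66.7% called, near the 56.5% of all tested genes): H2AX (-1.04) and MDC1 (-0.61) were among those that fell, and NBN (0.28) among those that rose. ATM itself was at -0.03 (adjusted p = 0.577, edgeR), and did not pass.

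All 11 listed substrates and effectors of the mitotic kinases were lower, against 28.7% of all tested genes, with a median of -2.01. They were led by KIF20A (-2.67), a PLK1 partner at the midzone, CENPA (-2.37), the centromeric histone that AURKB phosphorylates, and BUB1 and CEP55 (both -2.15). Of 7 genes for the MuvB, B-MYB and FOXM1 factors that act through the CHR, 4 were lower (57.1% called, near the 56.5% of all tested genes). FOXM1 (-1.58) and MYBL2 (-1.46), which encodes B-MYB, were lower, with CDK1 at -1.66 beside them, LIN9 was at -0.89, and LIN37, LIN52 and RBBP4 did not pass.

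**Figure D5:**
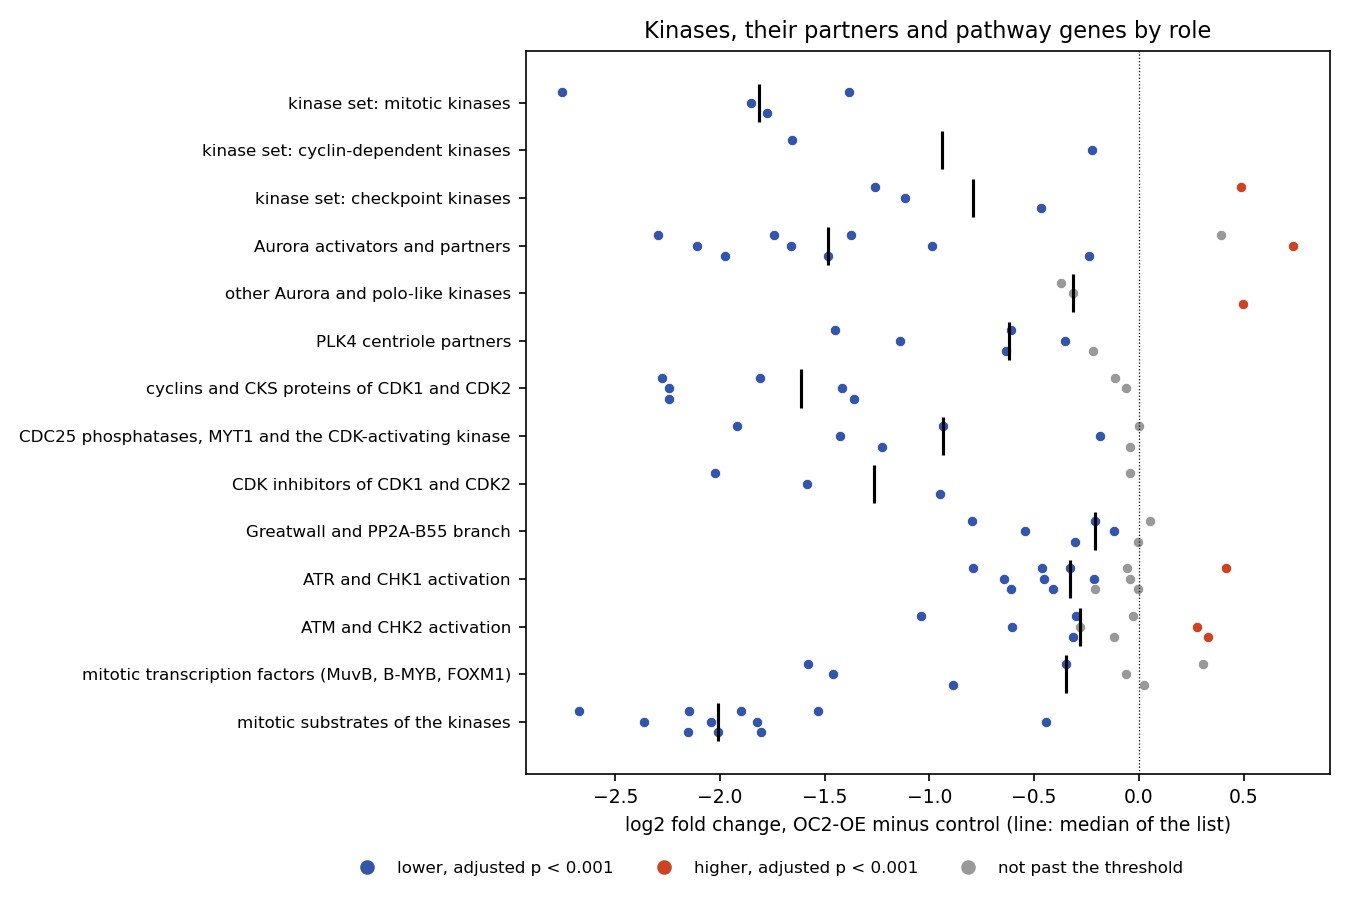
Log2 fold change (horizontal axis, OC2-OE against control) of every tested gene in the kinase sets (mitotic, cyclin-dependent and checkpoint) and in 11 lists of partners and pathway genes. Blue marks lower and red higher past the threshold, grey neither, with a line at the median of each set or list. Among the 11 lists, the substrates (median -2.01) and cyclins (-1.61) lie farthest left and the Greatwall (-0.21) and ATM (-0.28) lists near 0. The mitotic kinases have a median of -1.82.

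Neighbouring genes that share a start region with a kinase or overlap it were measured too, with distances taken between the gene starts of GENCODE release 42. CSTF1, a cleavage stimulation factor, starts 34 bases from AURKA on the other strand, and it was also lower (930, 904 and 830 counts against 626, 550 and 631, log2 fold change -0.64, adjusted p = 1.25e-21, edgeR), by less than AURKA. HSCB, with a start 383 bases from that of CHEK2 on the other strand, was at -0.37 (adjusted p = 0.00111, edgeR) and did not pass. PMEL overlaps CDK2 on the other strand and rose by 1.02 from 3.34 CPM, and the counting used the strand. The pseudogene AURKAP1 had 16 counts in all, against 8771 for AURKA.

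Genes with the pattern closest to each kinase were sought among 11197 genes with a mean log2 CPM of at least 3, by the Euclidean distance of centred log2 CPM over the 6 libraries. Closest to AURKA were SYT4, ST18 and CELF3, to AURKB TGFB3, TACC3 and SHCBP1, to PLK1 NSG2, SCD and UCP2, and to PLK4 CDKN2C, CALCRL and FAM174B. CD99L2, KNL1 and TESC were closest to CDK1, and POLR2I, ALAS1 and PIP5K1A to CDK2. For WEE1 they were ERCC4, BSPRY and NANP, for CHEK1 SIX2, CADM1 and SGPL1, for CHEK2 ORC6, PPM1L and GINS1, and for ATR NECTIN2, ANO5 and SPTSSA. The smallest distance was 0.0397 (POLR2I to CDK2) and the largest of the 30 was 0.124 (UCP2 to PLK1). With 2 groups, such a distance is mostly a likeness in the size of the change.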

How the data were processed

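RNA was sequenced by the authors as stranded poly(A) libraries. The submitters' processing notes name FastQC version 0.11.8 and STAR version 2.7.9a, and per the file headers featureCounts version 1.6.0 counted read pairs on exons of GENCODE release 42 (GRCh38) by strand, without reads of several matches. The deposited values are raw counts, and the total counts per library limit the precision. The edgeR p-values rest on the spread between 3 libraries a group, with the variance estimate shared over all tested genes. That spread was small, with a common biological coefficient of variation of 2.2%. Whether the libraries of a group came from separate transductions was not stated, so the p-values may not cover variation between them.

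In R version 4.3.3, edgeR version 4.0.16 was used with TMM, filterByExpr and a robust quasi-likelihood test of all genes (Benjamini-Hochberg adjustment, threshold 0.001), with limma version 3.58.1 (voom) and the Wald test of DESeq2 version 1.42.0 as alternatives, besides other scalings, filters, thresholds and left-out libraries. Standard errors were taken as the size of a log2 fold change over the square root of its F statistic. Ratios were compared with a two-sided exact permutation test. Scripts were tested on simulated data.

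The kinases and lists were chosen with earlier results of these data known, so no list was tested. Named are all kinases, the 3 genes of each list with the largest called change (except 1 gene that is not reported here) and others whose role is described, tested neighbours that start within 1000 bases on the other strand or overlap, pseudogenes with at least 10 counts, and the 3 nearest patterns.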

Additional observations from a re-analysis of the deposited data

How the results depend on the processing

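The kinases were recounted with DESeq2 size factors, library size only, upper-quartile scaling, DESeq2's Wald test, limma voom, no filter, counts without ONECUT2, a filter of at least 10 counts in every library, an adjusted p under 0.05 and each library left out. No log2 fold change reversed, and of the 10 kinases CDK2 alone lost its call, at -0.17 with library size only (adjusted p = 0.00162, edgeR), -0.23 with the Wald test of DESeq2 (adjusted p = 0.00114), -0.19 without control replicate 2 (adjusted p = 0.00197, edgeR) and -0.21 without OC2-OE replicate 1 (adjusted p = 0.00118, edgeR); the cause was not tested. Over the 6 libraries left out in turn its log2 fold change ranged from -0.27 to -0.19, and the call held in the other 4. Over its alternatives the adjusted p of CDK2 ranged from 9.06e-06 to 0.00197. A minimum absolute log2 fold change of 1 left 2999 genes (1564 lower, 1435 higher), 7 kinases (7 lower, 0 higher) and 33 partner genes (33 lower, 0 higher), since it asks for more. Leaving out single libraries gave 8944 to 9340 genes, 9 to 10 kinases and 60 to 64 partner genes. The split of all called genes by direction depends on the scaling. It was 4966 lower and 4810 higher in the main fit, 4427 and 5337 with library size only, and 4521 and 5256 with upper-quartile scaling. The replicate numbers shared across groups did not pair the libraries (correlations of 0.000388, 0.0225 and 0.0151), and with the replicate number as a block all 10 kinases were called, 9 lower and 1 higher.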
